A study of Mus musculus with 12 samples.

Results

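Matrix metalloproteinases and their endogenous inhibitors were followed from J1 mouse embryonic stem (ES) cells to embryoid bodies. The set was named gene by gene and comprised Mmp2, Mmp3, Mmp9, Mmp11, Mmp14, Mmp15, Timp1, Timp2, Timp3 and Reck. A member was measured by every array probe set annotated to exactly 1 gene with that symbol. By this rule 9 of the 10 named genes were measured, among 18193 genes in all, through 21 of 45137 probe sets. Mmp15, which encodes a membrane-type metalloproteinase, had no probe set under the rule and is not described further.

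J1 is a male-derived mouse ES cell line of the 129 background. ES cells were grown for 2 days on dishes coated with 0.1% gelatin, in D-MEM with 10% serum, leukaemia inhibitory factor (LIF), beta-mercaptoethanol and sodium pyruvate. Embryoid bodies, the aggregates that ES cells form when they cannot attach, were grown for 5 days in bacterial Petri dishes in medium with 10% serum and without those 3 additions. Per the labels, the ES cultures were judged by eye to be 95% pure, the remainder being DR4 feeder cells, which are mouse embryonic fibroblasts. There were 3 replicates of each state, and each was hybridised to both Affymetrix chips of a pair, MOE430A (chip A) and MOE430B (chip B), giving 12 arrays. Of the member probe sets, 20 were on chip A and 1 was on chip B.

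Values are MAS5 intensities, called signals here, in arbitrary units on a linear scale. A signal depends on the probes as well as on the RNA, so levels are compared between samples and not between probe sets. Changes are differences of log2(signal + pseudocount), embryoid bodies minus ES cells, with a pseudocount of 137 on chip A and 253 on chip B, so the change of a dim probe set is understated, and the folds given are these fitted log2 changes turned back to a linear scale, which differ from the ratios of the mean signals. The words rose and fell are kept for probe sets whose p from limma, adjusted by the Benjamini-Hochberg method over the whole chip, was under 0.05, and such a probe set is referred to as called.

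The median signal of an array ran from 587 to 679 on chip A and from 907 to 996 on chip B. The pluripotency factor Pou5f1 fell from a mean of 14603 ± 1880 (SD, n = 3) in ES cells to 7688 ± 236 (SD, n = 3) in embryoid bodies, with an adjusted p of 0.00783. Over chip A 1425 of 22626 probe sets were called, which is 6.30%, and over chip B 2407 of 22511, which is 10.7%. Chip lot, scan month and scan day each separated the 2 states completely on both chips, so state, lot and time of scanning cannot be told apart. The labels do not state whether the replicates were grown apart, so the spread behind the p-values is that among these arrays alone and could be technical. RNA was taken from whole cultures, in which fewer cells of a type and less RNA per cell cannot be told apart.

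Matrix metalloproteinases (MMPs) are zinc-dependent proteases that cut collagens, proteoglycans and other proteins at and around the cell surface. Most are made as inactive precursors. Tissue inhibitors of metalloproteinases (TIMPs) are secreted proteins that block the active site, and RECK is a membrane-anchored inhibitor. TIMP2 also takes part in activation, since it links the precursor of MMP2 to MMP14 on the cell surface. In early mouse development these proteins accompany matrix remodelling at implantation and in the growth of extraembryonic tissues.

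Transcripts of the secreted inhibitors Timp1, Timp2 and Timp3 fell in embryoid bodies, and no protease passed the test: 9 of the 11 TIMP probe sets on chip A were called lower, where 2.91% of all probe sets of the chip were called lower and 3.39% higher. These 11 probe sets cover 3 genes and are not independent. Members were chosen with earlier results of these data known, so setting the count beside these shares is not a test. The 9 falls ran from 2.55-fold to 5.22-fold, and the mean signal in embryoid bodies was between 10.4% and 34.7% of the ES mean. No TIMP probe set was called higher. Of the 10 probe sets for MMPs and Reck, 0 were called by limma in either direction. On chip B, which held 1 of the 10, 4.91% of all probe sets were called lower and 5.78% higher. An unadjusted limma p under 0.05 was found for 2, Mmp11 on chip A and Mmp14 on chip B. The share of all probe sets at that unadjusted level is not given here. On chip A the median log2 change was -1.81 over the 11 TIMP probe sets and 0.03 over the 9 for MMPs and Reck, and it was -0.05 over all probe sets. The difference between TIMPs and MMPs as groups was not tested.

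**Figure D1:**
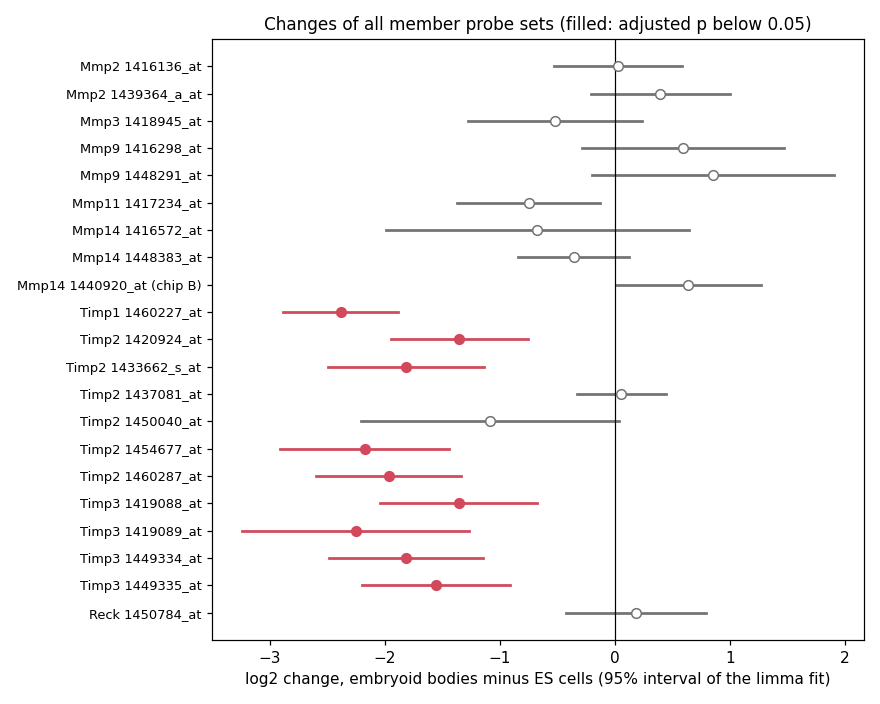
Log2 change of each of the 21 member probe sets, embryoid bodies minus ES cells, with the 95% interval of the limma fit. Filled points have an adjusted p below 0.05, and they are the 9 TIMP probe sets, all to the left of 0.

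The upstream sequences of the members that moved together are shown here, with that of Mmp3, whose probe set was not called, for contrast. Each window holds 250 bases before and 50 after the RefSeq transcription start on build GRCm38.p6 and reads 5′ to 3′ on the strand of the gene. Timp1 is at chrX:20869916-20870215 on the plus strand, Timp2 at chr11:118355362-118355661 on the minus strand, Timp3 at chr10:86300162-86300461 on the plus strand and Mmp3 at chr9:7445572-7445871 on the plus strand. Capitals mark a GC box (GGGCGG, or its reverse complement CCGCCC) or an AP-1 site (TGANTCA), both of which were searched on both strands and nowhere overlapped each other in these windows.
Timp1: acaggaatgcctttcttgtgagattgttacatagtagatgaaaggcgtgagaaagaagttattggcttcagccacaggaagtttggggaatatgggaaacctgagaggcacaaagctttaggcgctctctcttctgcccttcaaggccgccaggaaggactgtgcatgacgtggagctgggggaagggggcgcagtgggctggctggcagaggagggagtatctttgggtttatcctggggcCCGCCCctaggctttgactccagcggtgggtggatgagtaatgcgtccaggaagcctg
Timp2: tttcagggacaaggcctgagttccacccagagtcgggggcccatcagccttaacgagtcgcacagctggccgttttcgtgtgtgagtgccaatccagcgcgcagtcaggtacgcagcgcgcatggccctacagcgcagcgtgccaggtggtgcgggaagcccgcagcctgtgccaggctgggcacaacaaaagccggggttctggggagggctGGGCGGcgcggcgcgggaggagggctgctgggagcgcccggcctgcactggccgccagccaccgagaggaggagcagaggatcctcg
Timp3: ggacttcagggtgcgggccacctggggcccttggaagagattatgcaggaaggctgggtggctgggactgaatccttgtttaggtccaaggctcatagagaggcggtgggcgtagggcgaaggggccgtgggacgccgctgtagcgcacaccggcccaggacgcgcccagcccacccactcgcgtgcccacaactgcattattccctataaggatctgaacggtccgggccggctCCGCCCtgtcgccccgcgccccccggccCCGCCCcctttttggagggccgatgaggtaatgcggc
Mmp3: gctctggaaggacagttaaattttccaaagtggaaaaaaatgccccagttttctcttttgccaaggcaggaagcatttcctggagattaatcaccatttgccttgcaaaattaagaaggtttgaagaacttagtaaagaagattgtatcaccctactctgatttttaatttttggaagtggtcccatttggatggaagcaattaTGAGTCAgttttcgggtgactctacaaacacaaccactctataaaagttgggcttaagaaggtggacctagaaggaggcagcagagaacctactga

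Of the 10 named genes, 8 had such a window, Mmp2 and Mmp9 being without. The GC box, which binds Sp-family factors, was in 7 of the 8 windows, all but that of Mmp3, and in 35.7% of the 32851 mouse windows searched. It occurred in the windows of the TIMPs that fell and equally in those of Mmp11, Mmp14 and Reck, whose probe sets were not called. The exact letters TGANTCA of the AP-1 site, bound by Fos and Jun proteins, were in 1 of the 8 windows, that of Mmp3, and in 7.81% of all windows. Near matches, such as TGAGTAA in the Timp1 window, were not searched for. The Mmp3 window also held the TATA box letters TATAAA, found in 13.6% of all windows. The STAT palindrome TTCNNNGAA was in 0 of the 8 windows and in 8.30% of all. The windows differed in base composition: 55.0% G or C for Timp1, 68.7% for Timp2, 67.0% for Timp3 and 40% for Mmp3. A match is a description of the letters and was not tested as a binding site.

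Timp1 encodes the secreted inhibitor that acts on most soluble MMPs and only weakly on membrane-type ones. The gene lies at chrX:20870166-20874737, inside the span of the synapsin gene Syn1. Its single probe set, 1460227_at, read 7160.2, 3820.2 and 6175 in ES replicates 1, 2 and 3 and 937, 1012 and 903 in embryoid body replicates 1, 2 and 3. Each embryoid body array was below each ES array by a wide margin, and the embryoid bodies lay within a narrow band, 15.8% to 17.7% of the ES mean. The mean signal was 5718 ± 1716 in ES cells and 951 ± 55.8 in embryoid bodies (SD, n = 3 each), a ratio of 6.02. The fitted log2 change, a 5.22-fold fall, was -2.38 (SE 0.22) with a 95% interval of -2.89 to -1.88 and an adjusted p of 8.94e-04 in limma. The call held on leaving out any 1 of the 6 arrays, with adjusted p-values from 7.08e-04 to 0.00678.

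Timp2 encodes the inhibitor that also serves the activation of MMP2. The gene lies at chr11:118301061-118355411 and contains the gene Cep295nl. It had 6 probe sets, which the annotation assigns to 2 source sequences, 3 probe sets to one, 2 to the other, and 1 with no source given, so their changes are not independent. In the brightest, 1460287_at, the ES arrays read 6687, 4477 and 5022 and the embryoid body arrays 1089, 871 and 2073. Both groups were well apart, with embryoid bodies at 16.1% to 38.4% of the ES mean. The mean signal went from 5395 ± 1151 to 1344 ± 640.2 (SD, n = 3 each), a ratio of 4.01, and the fitted fall was 3.90-fold with an adjusted p of 0.00564.

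Probe set 1454677_at for Timp2 fell by 2.17 on the log2 scale (SE 0.33, adjusted p 0.00689), from 4621, 2268 and 3232 in ES cells to 627, 361 and 965 in embryoid bodies. Probe set 1433662_s_at fell 3.52-fold (adjusted p 0.00999), from 5250.2, 1989 and 3610.5 to 827, 769.7 and 984. The smallest called change of the gene was that of 1420924_at, 2.55-fold (adjusted p 0.0188), from 2126, 1517 and 1445 to 399, 580.3 and 788. In each of these 3 probe sets every embryoid body array was below every ES array. The calls of 1460287_at, 1454677_at and 1433662_s_at held on leaving out any 1 array, with adjusted p-values up to 0.0319, 0.0350 and 0.0463. That of 1420924_at held in 3 of the 6 fits with 1 array left out.

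The other two Timp2 probe sets were not called, and in both the groups overlapped. The ES arrays of 1450040_at were spread widely, at 2317, 413 and 1218, and the embryoid body arrays read 470.0, 260.1 and 657. Its log2 change was -1.08 with a 95% interval of -2.21 to 0.04 and an adjusted p of 0.244. Probe set 1437081_at was dim on every array, from 25.0 to 66.0 in ES cells and from 21.6 to 60.6 in embryoid bodies. These signals are under the 20th percentile of the chip, and the log2 change of 0.06 (95% interval -0.33 to 0.44) carries little information on the transcript.

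Timp3 encodes an inhibitor that binds to the extracellular matrix and also acts on several ADAM proteases. The gene lies at chr10:86300412-86349505, inside the span of the synapsin gene Syn3. All 4 of its probe sets, which share 1 source sequence, were called lower. In the probe set with the largest change, 1419089_at, ES arrays read 4602, 1443 and 1663 and embryoid body arrays 184, 603 and 386. ES replicate 1 stood far above the other two ES arrays, yet the lowest ES array was still above the highest embryoid body array. The log2 change was -2.25 (SE 0.44) with a 95% interval of -3.24 to -1.26 and an adjusted p of 0.0186.

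Probe set 1449335_at for Timp3 fell 2.94-fold, from 3738, 1645 and 2188 to 574, 794 and 821, with an adjusted p of 0.0148. Probe set 1449334_at fell 3.51-fold, from 774, 374 and 553 to 38.1, 84.3 and 54.0, with an adjusted p of 0.00984. Its embryoid body signals were below the pseudocount, so this fold understates the ratio of the means, 567 ± 200.1 against 58.8 ± 23.5 (SD, n = 3 each). Probe set 1419088_at fell 2.56-fold, from 2428, 1294 and 1347 to 386, 764 and 549, with an adjusted p of 0.0303. In all 3 the groups were apart. No Timp3 call held on leaving out any 1 array. Those of 1449334_at, 1449335_at, 1419089_at and 1419088_at held in 5, 4, 3 and 2 of the 6 fits. The limma adjusted p-values ran up to 0.0571, 0.0646, 0.0704 and 0.120 in that order.

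**Figure D2:**
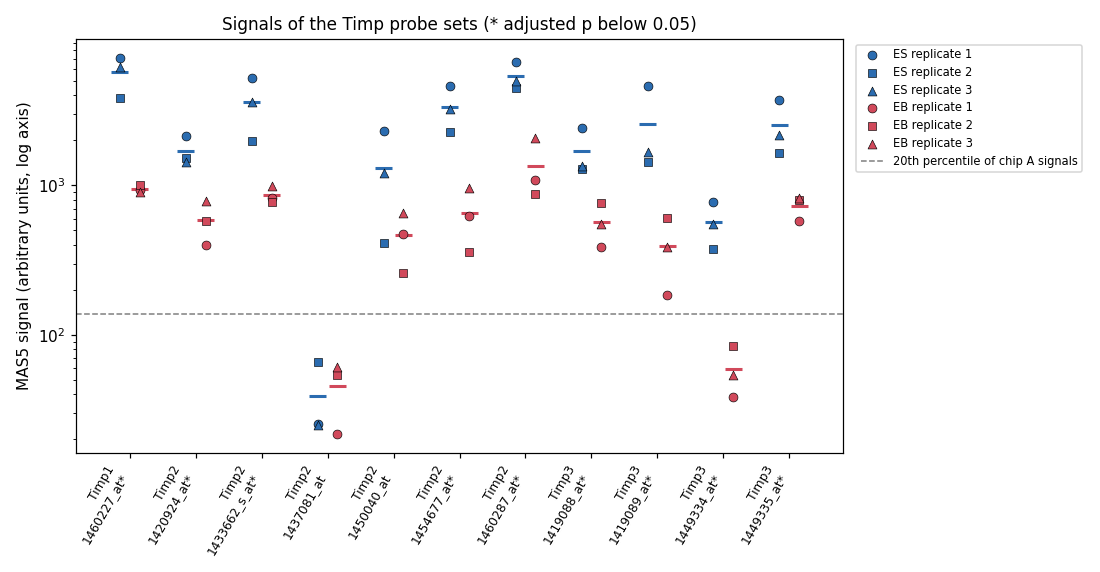
Signal of each TIMP probe set on each array of chip A, on a log axis, with ES cells and embryoid bodies in different colours and replicates in different shapes; an asterisk marks a call. In the 9 called probe sets every embryoid body point lies below every ES point, and in 1450040_at and 1437081_at the points overlap.

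Across the 9 called TIMP probe sets, ES replicate 1 was the highest ES array in 9 and ES replicate 2 the lowest in 8. The embryoid body arrays had no such common order: replicate 1 was the lowest in 5, replicate 2 in 3 and replicate 3 in 1. Timp1 and Timp2 share no source sequence with each other or with Timp3, but all the readings come from the same 6 RNA samples. Leaving out ES replicate 1 kept 5 of the 9 calls, and leaving out embryoid body replicate 1 kept 4, those of Timp1 and 3 Timp2 probe sets; no Timp3 call held without embryoid body replicate 1. Each of the 9 changes stayed negative under every alternative, and each was negative between arrays run at the same fluidics position: from -3.26 to -1.51 between ES replicate 1 and embryoid body replicate 2, and from -1.93 to -0.84 between ES replicate 2 and embryoid body replicate 3. With that position as a block in the limma fit 6 of the 9 calls held, those of 1420924_at, 1419088_at and 1449334_at being lost. Only 2 of the 4 positions on chip A held both states, so the change in that fit rests on the same 2 pairs of arrays. It is therefore not a check apart from the differences just given.

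Over the chip, 27.2% of probe sets had groups that did not overlap, and 14.0% had every embryoid body array below every ES array. Of the 20 member probe sets on chip A, 10 had every embryoid body array lower, the 9 called TIMP probe sets and Mmp11. None had every embryoid body array higher on that chip, against 13.1% of all its probe sets.

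**Figure D3:**
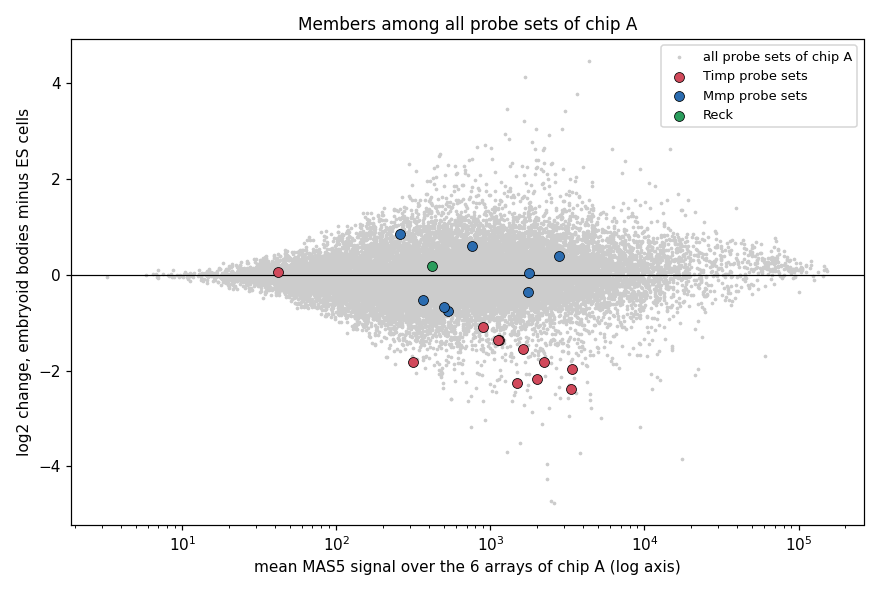
Log2 change, embryoid bodies minus ES cells, against the mean signal over the 6 arrays (log axis) for all probe sets of chip A in grey and the members in colour. The called TIMP probe sets lie between -1.35 and -2.38, and the MMP and Reck probe sets lie between -0.75 and 0.85.

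Mmp2 and Mmp9 encode the gelatinases, which cut denatured collagen and the type IV collagen of basement membranes. Mmp2 lies at chr8:92827290-92853421. Its brighter probe set, 1439364_a_at, read 1488, 2264 and 3689.6 in ES cells and 3059.6, 2999 and 3247 in embryoid bodies. The ES arrays spanned the embryoid body arrays, and the log2 change of 0.39 (95% interval -0.21 to 1.0) had an adjusted p of 0.437. The other probe set, 1416136_at, read 1114, 2290.0 and 1998 against 1650.3, 1692 and 1971, and its groups overlapped too, with a log2 change of 0.03 (95% interval -0.53 to 0.59). Both intervals leave out a fall as large as that of any called TIMP probe set.

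Mmp9, at chr2:164940326-164955850, had 2 probe sets with positive point estimates, and neither was called. Probe set 1416298_at read 268, 839 and 667 in ES cells and 534, 1056 and 1215 in embryoid bodies. Its sister 1448291_at read 70.4, 175 and 119 against 64.5, 527 and 595. In both, embryoid body replicates 2 and 3 were above every ES array and replicate 1 was not. The log2 changes were 0.59 (95% interval -0.29 to 1.47, adjusted p 0.426) and 0.85 (95% interval -0.20 to 1.90, adjusted p 0.330). On leaving out 1 array the first ran from 0.21 (without ES replicate 1, adjusted p 0.809) to 0.90 (without embryoid body replicate 1, adjusted p 0.315). The second ran from 0.52 (without embryoid body replicate 3, adjusted p 0.629) to 1.45 (without embryoid body replicate 1, adjusted p 0.0696).

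Mmp3 and Mmp11 encode stromelysins, of which MMP3 has a broad range of matrix substrates and MMP11 is activated inside the cell by furin. Mmp3, at chr9:7445822-7455975, was measured by 1418945_at, which read 370.3, 286 and 753 in ES cells and 259, 246 and 292 in embryoid bodies. ES replicate 3 stood above the rest and the groups overlapped, with a log2 change of -0.52 (95% interval -1.27 to 0.24, adjusted p 0.416). Mmp11, at chr10:75923221-75932502, was measured by 1417234_at, which read 615, 739 and 747 in ES cells and 438, 401 and 259 in embryoid bodies. Every embryoid body array was below every ES array. The log2 change of -0.75 (SE 0.28, 95% interval -1.37 to -0.13) had an unadjusted p of 0.0235 and an adjusted p of 0.147, so it did not pass. This interval includes a fall as large as the smallest called TIMP fall, the log2 change of -1.35 of Timp2 1420924_at.

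Mmp14 encodes the membrane-anchored protease that activates the MMP2 precursor and cuts fibrillar collagen. It lies at chr14:54431598-54442456 and was the only member with probe sets on both chips. None of its 3 probe sets was called, and their intervals overlapped. On chip A, 1448383_at read 2297, 1717 and 1916 in ES cells and 1349, 1234 and 2019 in embryoid bodies, with a log2 change of -0.36 (95% interval -0.84 to 0.12). The groups overlapped through embryoid body replicate 3. On chip B, 1440920_at read 1068, 1759 and 1929 in ES cells and 3049, 2345 and 2296 in embryoid bodies. There every embryoid body array was above every ES array, where 17.3% of the probe sets of that chip were placed so and 33.5% had groups apart in either direction, and the log2 change of 0.64 (95% interval 0.01 to 1.27) had an unadjusted p of 0.0479 and an adjusted p of 0.173.

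The third Mmp14 probe set, 1416572_at on chip A, read 632, 423 and 617 in ES cells and 25.0, 310.3 and 970.0 in embryoid bodies. The embryoid body arrays ran from far below to well above the ES arrays, so this probe set gives no direction: the log2 change was -0.67 with a 95% interval of -1.99 to 0.64, and 0.03 without embryoid body replicate 1. That interval includes falls as large as those of several called TIMP probe sets. The 2 chip A probe sets share a source sequence that the chip B probe set does not. Whether the 3 changes differ was not tested.

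Reck, at chr4:43875521-43944806, encodes the membrane-anchored inhibitor of several MMPs. Its probe set 1450784_at read 384, 450.2 and 312 in ES cells and 465, 446 and 439 in embryoid bodies. The embryoid body arrays were close together and overlapped the ES arrays at their upper end. The log2 change was 0.19 (95% interval -0.42 to 0.80, adjusted p 0.743). This interval leaves out a fall of the size seen in any called TIMP probe set.

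**Figure D4:**
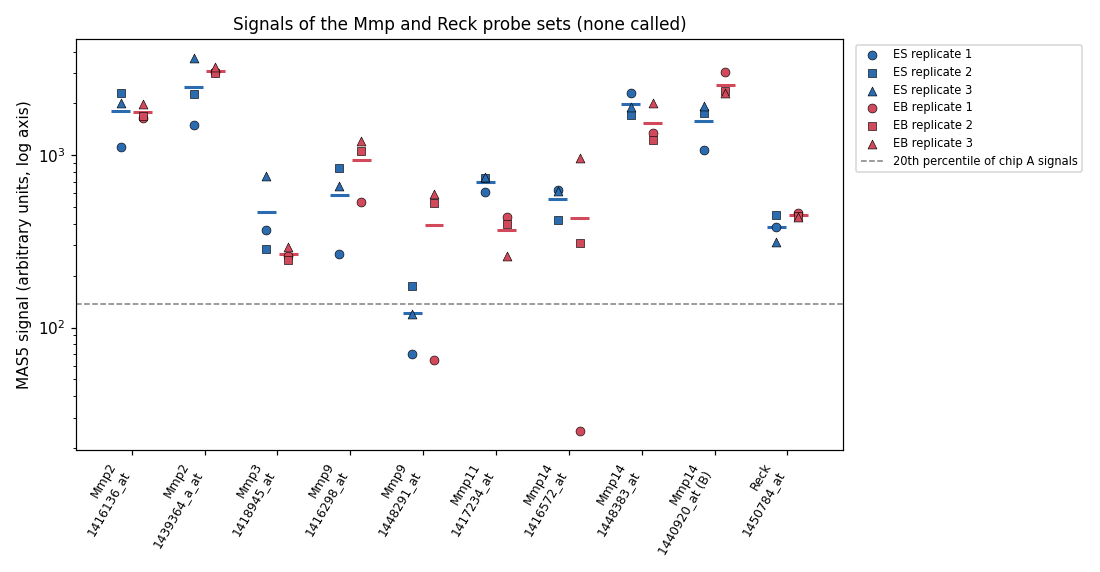
Signal of each MMP and Reck probe set on each array, on a log axis, with (B) marking the chip B probe set. The ES and embryoid body points overlap in all but Mmp11 1417234_at, where embryoid bodies are lower, and Mmp14 1440920_at, where they are higher, and no probe set was called.

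The rest of the extracellular protease network was examined with 1 probe set per gene, for which 4.42% of all genes were called higher and 4.38% lower (8.80% in all), with a median log2 change of -0.06. For counts at an unadjusted p under 0.05, here and in the lists below, the share over all genes is not given. Among 14 further MMP and TIMP family genes measured, limma called 0, and 1 had an unadjusted p under 0.05; their median change was 0.03. The brightest of them, Mmp24, which encodes another membrane-type enzyme, read 752, 849.8 and 722 in ES cells and 440.1, 686 and 409.9 in embryoid bodies. Its adjusted p was 0.308.

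Of 28 ADAM and ADAMTS genes, which encode membrane and matrix metalloproteases related to MMPs, 1 rose and 1 fell. Adam10, the main sheddase of Notch receptors and many adhesion proteins, had mean signals of 865 ± 404 and 2072 ± 235 (SD, n = 3 each) and a fitted rise of 2.32-fold, with an adjusted p of 0.0350. Adam19 had mean signals of 2364 ± 441 and 1116 ± 58.6 (SD, n = 3 each) and a fitted fall of 1.98-fold, with an adjusted p of 0.0162. Neither call held in all the fits with 1 array left out, with adjusted p-values up to 0.137 and 0.0749. The brightest uncalled gene, Adamts9, stood at 0.46 on the log2 scale with an adjusted p of 0.266.

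Plasminogen activation is a second route of matrix proteolysis, and plasmin can activate MMP precursors. Of 16 genes measured, 3 fell and 0 rose, with 5 at an unadjusted p under 0.05. Plaur, the urokinase receptor, had means of 2248 ± 588 and 729.7 ± 139 (SD, n = 3 each) and a fitted fall of 2.71-fold (adjusted p 0.0101). Spint2, an inhibitor of serine proteases, had means of 7719 ± 610.0 and 3747 ± 1456 and a fitted fall of 2.13-fold (adjusted p 0.0357). St14, the membrane serine protease matriptase, had means of 2533 ± 275 and 1192 ± 109.7 and a fitted fall of 2.01-fold (adjusted p 0.0110). Of these 3 calls only that of St14 held on leaving out any 1 array, with adjusted p-values up to 0.0460. The thrombin receptor F2r, the brightest uncalled gene of the list, had a log2 change of 0.02.

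Among 25 genes for activators, receptors and other inhibitors of MMPs, 3 fell and 0 rose, with 8 at an unadjusted p under 0.05. Pcolce, an enhancer of procollagen processing, read 5571, 2919 and 3474 in ES cells and 319.7, 391 and 269 in embryoid bodies. It fell 8.63-fold (adjusted p 5.19e-04), a larger fold than that of any TIMP probe set. Thbs1, a matrix glycoprotein that binds MMPs, fell 3.56-fold (adjusted p 0.0119), and the caveolar protein Cav1 fell 2.20-fold (adjusted p 0.0181). The last 2 calls were lost on leaving out 1 array, with adjusted p-values up to 0.0558 and 0.0875. Bsg, an inducer of MMPs and the brightest uncalled gene, had a log2 change of -0.15.

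Markers of fibroblasts, the type of the feeder cells, were also examined. Of 25 measured, 9 fell, 0 rose and 16 were not called, with 15 at an unadjusted p under 0.05 and a median log2 change of -1.05. None of the 25 was below the pseudocount in both states. The list shares Pdgfra with the endoderm markers and Thbs2 with the inhibitor list. The summed signal of the 25 ran from 30409 to 47369 in ES cells and from 11186 to 15093 in embryoid bodies. Col1a1, the main chain of type I collagen, read 6088, 3158 and 5524 in ES cells and 54.0, 65.5 and 26.3 in embryoid bodies (adjusted p 1.41e-04), so embryoid bodies were at 0.534% to 1.33% of the ES mean. S100a4 fell 15.5-fold (adjusted p 2.32e-04), Fbln2 5.07-fold (adjusted p 0.00172) and Lox 4.32-fold (adjusted p 0.0181, up to 0.0765 with 1 array left out). Col1a2, the brightest uncalled marker, stood at -1.05 on the log2 scale with an adjusted p of 0.0518.

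ES replicate 2 was the lowest ES array in 8 of the 9 called fibroblast markers and in 8 of the 9 called TIMP probe sets. Among these called markers ES replicate 1 was the highest in 5 of the 9. All these readings come from the same arrays, and the share of all probe sets with such an order is not given. Over all 25 markers ES replicate 2 was the lowest in 16, ES replicate 1 the highest in 7 and ES replicate 3 the highest in 14. On embryoid body arrays the 9 called TIMP probe sets stood at 6.72% to 46.5% of their ES means. Of the 25 fibroblast markers 17 had a span of embryoid body arrays that met that range, 2 were wholly below it (Col1a1 and S100a4) and 6 wholly above it. Such a span can cross the range with no array inside it, as that of Prrx1 did (5.36%, 77.8% and 103.6%). Twist1, named after its values were seen because it was the highest, stood at 192% to 320.4% of its ES mean and was not called. The part of feeder cells in the TIMP falls was not tested.

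**Figure D5:**
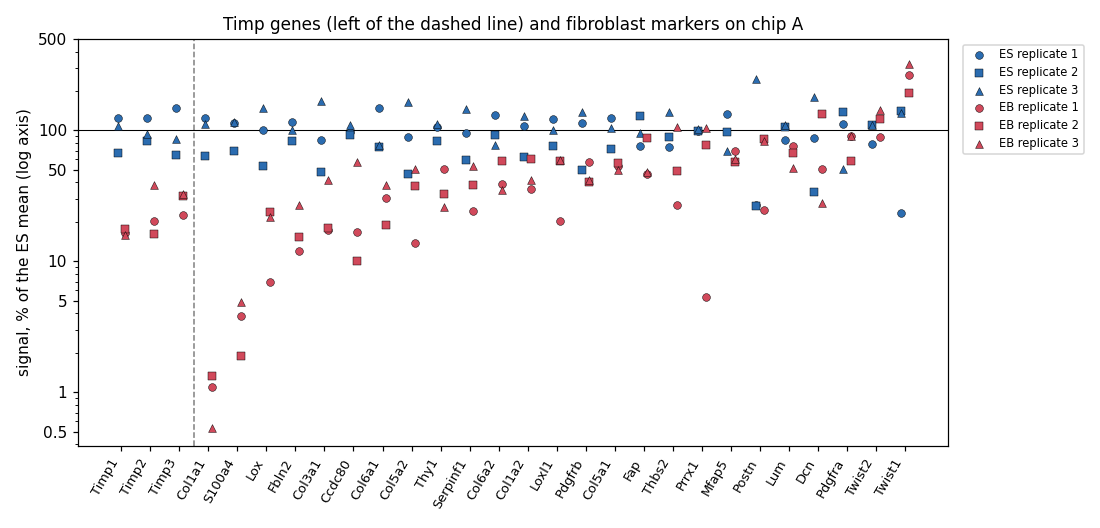
Signal of the brightest Timp1, Timp2 and Timp3 probe sets (left of the dashed line) and of fibroblast markers on each array of chip A, as a percentage of the ES mean on a log axis. Embryoid body points for the 3 TIMPs lie between 15.8% and 38.4%, and those for the 25 markers run from 0.534% (Col1a1) to 320.4% (Twist1), many of them within or above the TIMP range.

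Markers of other cell types were examined in the same way. Of 14 macrophage and leukocyte markers 1 fell, Laptm5 (2.79-fold, adjusted p 0.0223, up to 0.0939 with 1 array left out), and 4 had an unadjusted p under 0.05. The brightest uncalled one, Csf1r, stood at -0.54 on the log2 scale (adjusted p 0.356). The summed signal ran from 6947 to 8840.3 in ES cells and from 3807 to 5141 in embryoid bodies, and 3 markers were below the pseudocount in both states. Of 10 trophoblast markers, limma called 0, with 2 at an unadjusted p under 0.05. The brightest, Eomes, was higher in every embryoid body array than in every ES array, with a log2 change of 1.12 that did not pass (adjusted p 0.0717). The sums were 5540.0 to 5954 and 5198 to 8718, and 1 marker was below the pseudocount in both states. Of 20 parietal and visceral endoderm markers, Foxa2 rose (2.33-fold, adjusted p 0.0198, up to 0.0781 with 1 array left out) and 0 fell, with sums of 17834 to 25681 and 18157 to 23267 and 3 markers below the pseudocount in both states. Sparc, the brightest uncalled one, stood at -0.47 (adjusted p 0.335). Of 10 pluripotency markers 8 fell. The largest falls were those of Fgf4 (7.75-fold, adjusted p 3.95e-04), Klf4 (5.42-fold, adjusted p 0.00246), Zfp42 (3.36-fold, adjusted p 0.0298) and Dppa5a (3.26-fold, adjusted p 0.00918), while the brightest uncalled marker, Sox2, had a log2 change of -0.07. Of these calls only that of Zfp42 was lost on leaving out 1 array, with adjusted p-values up to 0.114. The part of these cell types in the TIMP falls was not tested.

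Among 10386 probe sets of chip A with 1 gene and a mean above the chip median, the 3 whose log2 signals followed those of Timp1 most closely over the 6 arrays belonged to Mcl1, Atp1b1 and Bgn. Pearson's r was 0.999, 0.997 and 0.996. Mcl1, a survival protein of the BCL2 family, went from a mean of 11479 to 7322, and the sodium pump subunit Atp1b1 from 1923 to 376. Bgn, the matrix proteoglycan biglycan, went from 5166 to 46.5. These coefficients describe 6 arrays in 2 states and take no account of the size of a change. Any gene whose states differ widely against the spread of its replicates, with a like order of replicates, scores high.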

How the data were processed

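Both deposited tables give, for each probe set and array, an intensity that is not on a log scale. The authors made these values with MAS5, per the submitters' processing notes; its version is not given in the sources used here. Array means trimmed by 2% at each end lay close together, and nothing was normalized again. Gene names came from the annotation of the platform, and only probe sets with exactly 1 gene were named. On each chip 64 control probe sets were removed. Sequences came from RefSeq on GRCm38.p6.

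Each chip was fitted alone on log2(intensity + pseudocount), using lmFit followed by eBayes with a trend on intensity (limma 3.58.1, R 4.3.3). As pseudocount served the 20th percentile of the signals of that chip. Benjamini-Hochberg adjustment ran over all probe sets of a chip, with a threshold of 0.05. The procedure was tested on simulated data. With 3 arrays per state and chip, precision is limited.

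Members and gene lists were chosen with earlier results of these data known. Every member probe set is reported. Of each other list the text names the called genes with the largest changes, up to 6 for protease lists and 4 for marker lists, and the brightest uncalled gene. In these lists 1 probe set stood for each gene, from chip A before chip B, then one whose ID does not end in _x_at, then the brightest. The genes most like Timp1 were searched for because it had the lowest adjusted p among the called members.

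Scan and fluidics records were read for batches. Alternatives varied the normalization, pseudocount, dim filter, variance trend, blocks and arrays left out.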

Additional observations from a re-analysis of the deposited data

How the results depend on the processing

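Of the 20 member probe sets on chip A, 9 were called as reported, 8 with a replicate block, 8 without the intensity trend, 6 with fluidics position as a block, and 4 to 9 on leaving out 1 array. The one on chip B was called under none of its alternatives. Over all probe sets of chip A the 1425 calls became 1136 with the replicate block, 844 without the trend, 2243 with scan day as a random block, and 434 to 2092 on leaving out 1 array; on chip B 2407 became 934 to 1806. The other gene lists had 27 calls, and 11 to 29 on leaving out 1 array; the lowest counts came without ES replicate 1 (11) and embryoid body replicate 1 (13). Signs turned only for uncalled members: Mmp14 1416572_at was 0.10 with the position block and -1.35 to 0.034 on leaving out 1 array, Mmp2 1416136_at -0.26 to 0.22, and Timp2 1437081_at -0.0053 to 0.16. Calls lost under a block or without the trend were those of Timp3 1419088_at (adjusted p 0.0537 with the replicate block, 0.0530 without the trend, 0.0581 with the position block), Timp2 1420924_at (0.0738) and Timp3 1449334_at (0.0507), the last 2 with the position block. The cause was not tested. Dim probe sets, below the 20th percentile of the chip, limit what can be read of Timp2 1437081_at. Replicate numbers are not said to pair samples, and same-numbered arrays had deviations that correlated at -0.07, 0.04 and -0.01 on chip A and at -0.02, -0.03 and -0.02 on chip B. On chip B, but not on chip A, same-numbered arrays were run at the same fluidics position. There the replicate block and the position block were therefore the same fit, with 2107 calls. On chip A only 2 of the 4 positions held both states, so the change with the position block rests on 2 pairs of arrays. Scan day separated the states on both chips. On chip A, where embryoid bodies were scanned on several days, it was used as a random block, and on chip B, with 1 day per state, it could not be fitted. On chip A the ES arrays shared a day and each embryoid body array had its own. The block thus could not adjust the change between the states for scan day. The fitted correlation within a day was -0.11.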
